A study of Mus musculus with 4 samples.

Results

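The genes described here encode the enzymes that attach glutathione, glucuronic acid or sulfate to other molecules: the cytosolic and mitochondrial glutathione S-transferases (GST), the UDP-glycosyltransferases (UGT) and the cytosolic sulfotransferases (SULT). They were chosen by symbol among the 55401 genes of the count files. In the annotation, 65 protein-coding genes had symbols that begin with Gst, a class letter and a number, or with Ugt or Sult and a number. Of these, 38 averaged 10 counts or more in the 2 kidney libraries or in the 2 heart libraries: 20 of 22 GST, 11 of 22 UGT and 7 of 21 SULT genes. Closest above the minimum was Gsto2 with a mean of 12 in kidney, and closest below it was Gstt4 with a mean of 7 in each tissue. Of the genes left out, 4 UGT and 11 SULT genes had 0 counts in every library, among them 7 of the 8 Sult2a genes.

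RNA-seq had been done on kidney and heart of C57BL/6 mice with cecal ligation puncture (CLP), a sepsis model in which gut bacteria leak into the abdomen, and of such mice given melatonin (CLP + MLT). There was 1 library for each tissue and treatment, 4 in all, and no sham library was analysed here. The kidneys came from male mice given as 8 weeks old before the 14 days of treatment, with tissue taken 24 h after CLP. Those of the melatonin group had drunk water with melatonin (25 μg/ml) over the 14 days before surgery. No source used here gives the dose, the time or the age for the hearts. The labels write the treatment as CLP+MLT4, except for the treatment field of the melatonin heart (CLP+MLT), and do not explain the number. Whether a library came from 1 mouse or several is not stated. With 1 library per group, no difference below could be set against the spread between mice. In bulk tissue, fewer cells of a type and less RNA per cell cannot be told apart.

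These enzymes work in the second phase of the handling of drugs, hormones and reactive products. GSTs join glutathione to electrophiles, such as the aldehydes that come from oxidised lipids. UGTs sit in the membrane of the endoplasmic reticulum and mostly take their sugar from UDP-glucuronic acid, while SULTs work in the cytosol and take sulfate from PAPS. The products are more soluble in water and leave by transporters, in kidney mainly across the proximal tubule. Melatonin itself is cleared in the liver as 6-hydroxymelatonin joined to sulfate or glucuronic acid.

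The libraries had between 15883057 and 22927905 reads counted on genes. Mitochondrial genes took 14.8% and 24.2% of them in the CLP and CLP + MLT kidney libraries, and 31.6% and 36.0% in those of heart. The leading tissue markers went with the labels: Slc34a1, a phosphate transporter of the proximal tubule, had 31882 and 31051 counts in kidney, and Myh6, a cardiac myosin, had 208975 and 158174 in heart. Myl7, the atrial light chain, went against them, with 1 and 0 counts in the heart libraries and 54 and 30 in those of kidney. The 10 hepatocyte markers were mixed. Cyp3a11 had 0 counts in every library, and Alb had 114 and 71 in kidney and 140 and 70 in heart. Others had more counts in kidney, among them Cyp2e1 (25518 and 8536) and Apob (2913 and 1726). In heart, Cyp2e1 had 229 and 380 and Hpx had 252 and 138.

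Each comparison is the log2 of the CLP + MLT value over the CLP value within a tissue, after scaling by TMM, with a 95% exact interval that holds counting error only. A gene was called higher or lower where it differed 1.5-fold or more and an exact binomial test of its reads gave a p-value up to 0.01. That test compares the 2 libraries and not the conditions. Levels are given in CPM (counts scaled to a common library total) per kb of exon, taken over the exon bases that no other gene shares. By these levels, Gstm1 led the GSTs in both kidney libraries, with 365 in CLP and 414 in CLP + MLT. Ugt2b38 (140 and 80.2) and Ugt3a2 (123 and 119) led the UGTs, with Ugt2b38 first under CLP and Ugt3a2 first under CLP + MLT. Sult1d1 led the SULTs, with 242 and 284. In heart, Gstm1 again led the GSTs (71.9 and 93.1), the highest UGT level was 4.50, and Sult1a1 led the SULTs with 176 and 105. Exons of Gstm5, Gstz1, Sult1a1, Sult2b1 and Sult6b1 overlap genes on the opposite strand, and those of Gstt3 overlap a gene on its own strand, with 86.1% to 96.0% of their bases free, so a part of their reads is uncertain.

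**Figure D1:**
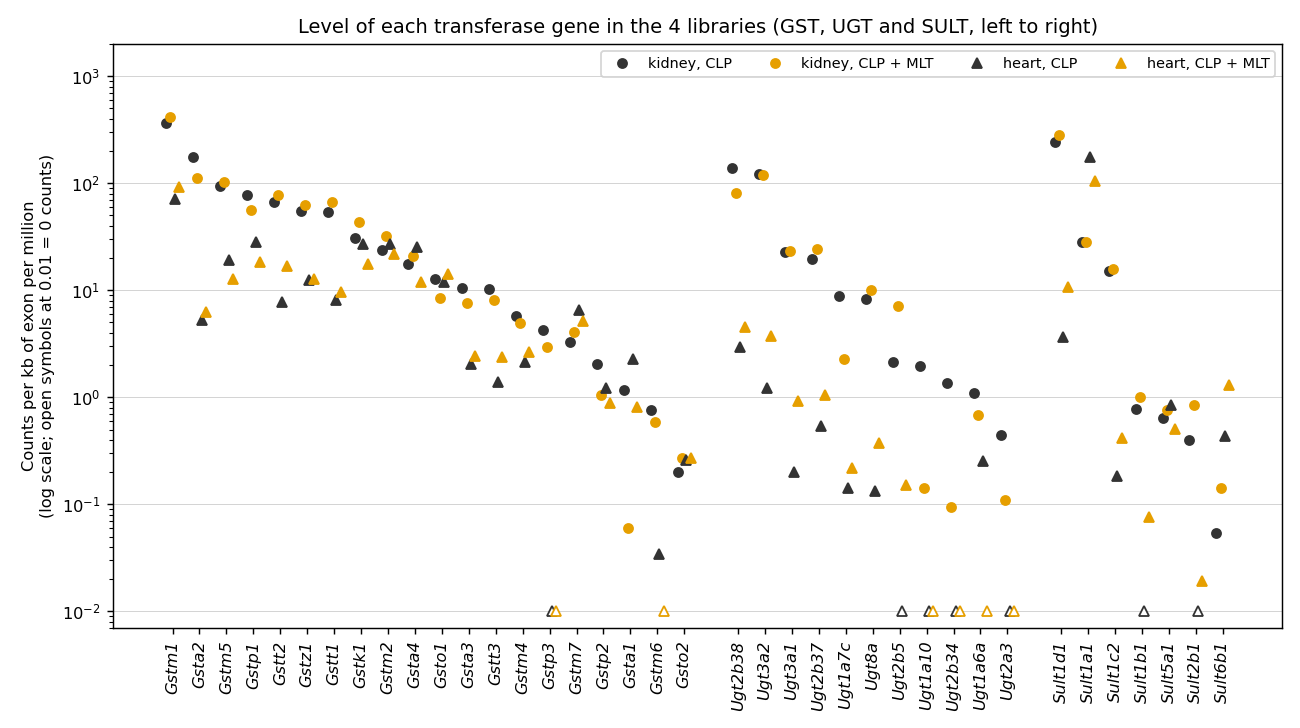
Level of each of the 38 transferase genes in the 4 libraries, in CPM per kb of exon on a log axis, ordered by the CLP kidney level within GST, UGT and SULT. Circles are kidney, triangles heart, dark CLP, orange CLP + MLT, and each symbol is 1 library. UGT levels in heart reach at most 4.50, while Sult1a1 is higher in heart (176 and 105) than in kidney (28.5 and 28.4).

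In kidney, few GST genes differed between the libraries and the family's sum differed little. Of the 20 GST genes, all of them tested in kidney, 4 were lower in the CLP + MLT library (Gsta1, Gsta2, Gsto1 and Gstp2), 0 were higher and 16 were not called. That is 20.0% of the GST genes, against 15.4% of the 16932 genes tested in kidney that were called in either direction. All 4 calls were lower, where the background was 7.58% lower and 7.8% higher. The median log2 ratio of the GST genes was −0.04, from −3.84 to 0.51, and that of all genes was 0.0029. Added together, the GST genes had 49834 and 32558 counts, which is 2031 and 2115 CPM after scaling, a log2 ratio of 0.06 (0.04 to 0.08). Scaled by library size only, this sum came out at −0.14 and 7 GST genes were lower, with 18.3% of all genes called.

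The alpha class, whose enzymes reduce lipid peroxides and isomerise steroids, held 2 of the 4 calls. Gsta2 (ENSMUSG00000057933.10, chromosome 9, 78331018 to 78355788) had 5639 counts with CLP and 2273 with CLP + MLT. It was 1.56-fold lower, a log2 ratio of −0.64 (−0.71 to −0.57), and its share of all GST reads went from 11.3% (11.0 to 11.6) to 6.98% (6.71 to 7.26). Gsta1, its neighbour on chromosome 9 (78230656 to 78242684), had 31 counts and 1 count, or −3.84 on the log2 scale (−9.63 to −1.70). It passed the minimum mean in kidney only through its CLP count. Gsta1 is hard to count: 80.6% of the 100-base windows of its transcripts also occur in transcripts of other genes, mostly Gm3776 and Gsta2, and reads that align to several places were not counted. For Gsta2 the shared part was 28.4%. The other alpha genes were not called. Gsta3 had 1248 and 573 counts, with −0.45 (−0.60 to −0.31). Gsta4, which prefers the lipid aldehyde 4-hydroxynonenal, was above 0, with 614 and 460 counts and 0.26 (0.08 to 0.43).

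The omega and pi classes gave the other calls. Gsto1, an omega enzyme that also reduces dehydroascorbate, had 710 and 294 counts, 1.52-fold lower, with −0.60 (−0.80 to −0.40). Gstp2 had 62 and 20 counts and −0.95 (−1.77 to −0.21). Both calls were lost when the libraries were scaled by the upper quartile. All 3 pi genes, which lie side by side on chromosome 19 (4035407 to 4059569), were on the lower side, and the best expressed of them, Gstp1, had 3330 and 1495 counts and −0.48 (−0.57 to −0.39), short of 1.5-fold. Gstp1 and Gstp2 share sequence, 46.9% of the windows for Gstp2 and 25.1% for Gstp1, so their reads are in part uncertain. Gstp3 had 107 and 46 counts, with −0.54 (−1.08 to −0.03). The second omega gene, Gsto2, was not called, with 13 and 11 counts.

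None of the mu, theta, zeta and kappa genes was called in kidney. The 6 mu genes form a cluster on chromosome 3 (107895821 to 108044894), and their log2 ratios lay between −0.39 (Gstm6) and 0.42 (Gstm2). Gstm1 had 14754 and 10536 counts, 29.6% (29.2 to 30.0) and 32.4% (31.9 to 32.9) of all GST reads, and a log2 ratio of 0.19 (0.15 to 0.22). Gstm5 had 2861 and 1971 counts and 0.13 (0.05 to 0.22). The theta genes on chromosome 10 ranged from −0.34 for Gstt3 to 0.32 for Gstt1, with Gstt2 at 7699 and 5515 counts and 0.19. Gstz1, the zeta enzyme of tyrosine breakdown, had 6797 and 4833 counts and 0.18 (0.13 to 0.23). The mitochondrial kappa enzyme Gstk1 had 1235 and 1107 counts and 0.51 (0.40 to 0.63), the highest ratio of the family. Several of these small positive values depend on the scaling: by library size only, the median of all genes was −0.19, and Gstm1, Gstm5, Gstt2 and Gstz1 lay between −0.061 and −0.0044.

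**Figure D2:**
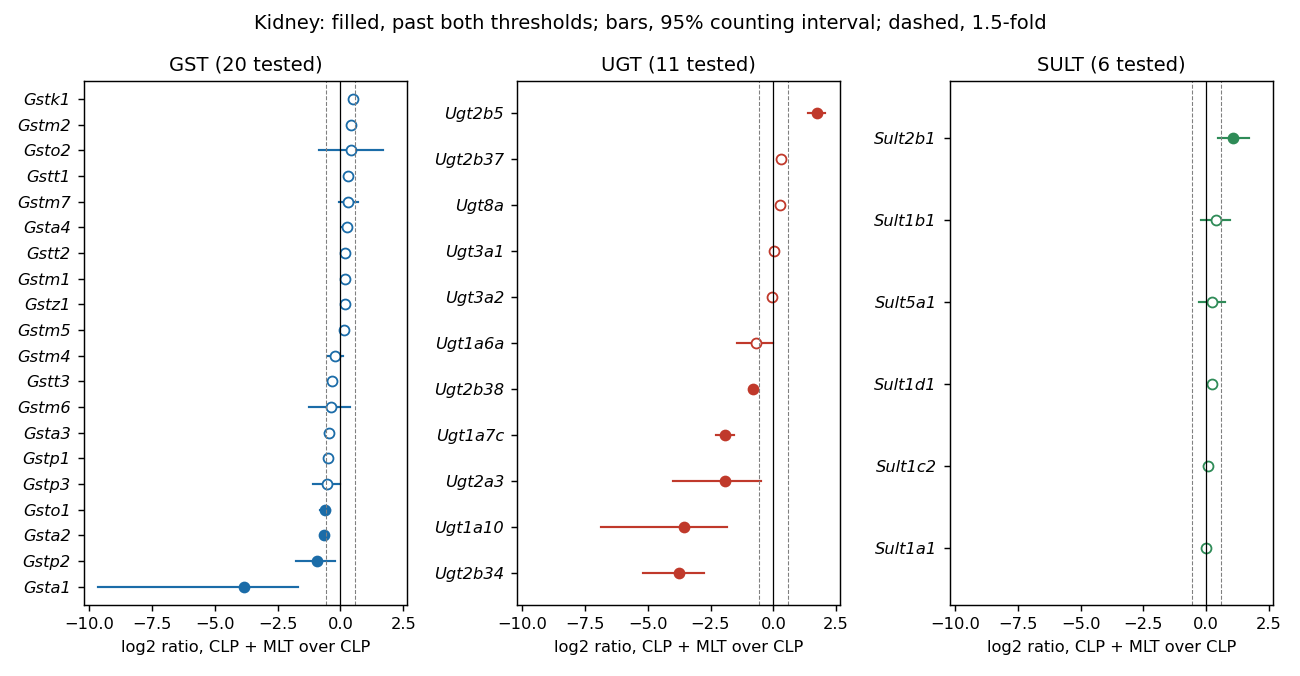
Kidney log2 ratio (CLP + MLT over CLP) for the 20 GST, 11 UGT and 6 SULT genes tested, 1 library per group. Bars are 95% counting intervals, filled points passed both thresholds and dashed lines mark 1.5-fold. The calls lie mostly among the UGT genes, 5 lower and 1 higher of 11, while 1 of 6 SULT genes was called.

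The UGT genes differed most in kidney. All 11 were tested, and 6 were called, 54.5% of them against 15.4% of all genes. Lower in the CLP + MLT library were 5 genes, 45.5% of the family where the background of lower calls was 7.58%. Higher was 1 gene, or 2 of the 37 transferase genes tested in kidney, where the background of higher calls was 7.8%. The median log2 ratio was −0.70, from −3.77 to 1.72. With the minimum raised to a mean of 50 counts, the UGT median was −0.013 and 3 were lower, with 14.3% of all genes called. The 3 UGT1 genes were all on the lower side. The lower calls were Ugt1a10 and Ugt1a7c of the UGT1 locus and Ugt2a3, Ugt2b34 and Ugt2b38 of the UGT2 cluster, and the higher one was Ugt2b5. Of the lower calls, Ugt1a10, Ugt2a3 and Ugt2b34 had 2, 4 and 7 counts in the CLP + MLT library. They passed the minimum mean of 10 only through their CLP counts.

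The UGT1 enzymes, which handle bilirubin, phenols and many drugs, come from 1 locus on chromosome 1 (88055388 to 88220002). Each has its own first exon, and 1311 bases of the later exons serve all of them. Reads on shared exons fit several genes, so the counts rest on the 35.7% of exon bases that are free in Ugt1a10, 45.4% in Ugt1a7c and 49.7% in Ugt1a6a. Ugt1a7c (ENSMUSG00000090124.7) had 461 counts with CLP and 76 with CLP + MLT, 3.79-fold lower, with a log2 ratio of −1.92 (−2.30 to −1.58). Ugt1a10 had 44 and 2 counts, and −3.55 (−6.88 to −1.85). Ugt1a6a, of the phenol-conjugating type, had 65 and 25 counts and −0.70 (−1.43 to −0.02) and was not called. The other UGT1 genes were close to 0, with at most 6 counts in any library.

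The UGT2 genes, whose enzymes conjugate steroids and bile acids, lie on chromosome 5 (86889767 to 87569027) in a stretch that also holds Sult1b1 and Sult1d1. Neighbours in this stretch differed in direction: the log2 ratios of its 7 members ran from −3.77 to 1.72. Ugt2b34 (ENSMUSG00000029260.15, 86889767 to 86906937) had 160 and 7 counts, 13.6-fold lower, with −3.77 (−5.18 to −2.77). Ugt2a3 had 26 and 4 counts and −1.93 (−4.01 to −0.50). Ugt2b38 (ENSMUSG00000061906.5, 87409942 to 87424203) carried most of the UGT2 reads and was lower by a smaller factor. It had 7268 and 2619 counts, a 1.74-fold difference and −0.80 (−0.87 to −0.74), and its share of all UGT reads went from 32.6% (32.0 to 33.2) to 21.9% (21.1 to 22.6). Ugt2b5 (ENSMUSG00000054630.7, 87124960 to 87140318) had 109 and 227 counts, 3.31-fold higher, with 1.72 (1.39 to 2.07). Ugt2b37 was not called, with 1021 and 801 counts and 0.32 (0.19 to 0.46).

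Ugt2b5, Ugt2b37 and Ugt2b38 are related genes of the UGT2 cluster, and they gave a higher, an uncalled and a lower value in kidney. In their transcripts, 24.7% of the 100-base windows of Ugt2b5 also occur in Ugt2b38, while Ugt2b37 shared 1.06% with both, so reads of Ugt2b5 and Ugt2b38 are in part uncertain. The upstream sequences of all 3 are shown to let the genes be compared. These are the 250 bases before the start of each gene in RefSeq (build GRCm38.p6, all on the minus strand, at chr5:87140341-87140590 for Ugt2b5, chr5:87254789-87255038 for Ugt2b37 and chr5:87424204-87424453 for Ugt2b38), written 5′ to 3′ with the longest run shared by all 3, 62 bases, in capitals.
Ugt2b5: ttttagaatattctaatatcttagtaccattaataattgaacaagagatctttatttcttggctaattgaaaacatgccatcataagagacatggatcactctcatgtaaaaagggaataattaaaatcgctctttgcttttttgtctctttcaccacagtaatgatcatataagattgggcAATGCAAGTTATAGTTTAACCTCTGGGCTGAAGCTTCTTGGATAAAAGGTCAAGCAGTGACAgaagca
Ugt2b37: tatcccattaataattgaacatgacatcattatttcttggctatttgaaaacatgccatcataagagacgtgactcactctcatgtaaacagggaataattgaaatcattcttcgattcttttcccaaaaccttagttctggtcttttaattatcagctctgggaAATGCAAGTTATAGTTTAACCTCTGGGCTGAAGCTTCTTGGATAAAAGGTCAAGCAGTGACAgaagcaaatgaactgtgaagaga
Ugt2b38: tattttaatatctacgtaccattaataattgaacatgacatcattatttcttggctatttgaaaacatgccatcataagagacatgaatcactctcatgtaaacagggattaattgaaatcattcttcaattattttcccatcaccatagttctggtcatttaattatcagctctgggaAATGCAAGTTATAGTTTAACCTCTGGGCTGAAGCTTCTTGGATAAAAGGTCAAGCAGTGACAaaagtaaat
In a global alignment of these windows, identity was taken over all columns, gaps included. Ugt2b5 and Ugt2b38 were 81.5% identical, with 28 mismatches and 20 gap columns. Ugt2b5 and Ugt2b37 were 72.6% identical, with 27 mismatches and 48 gap columns. Ugt2b37 and Ugt2b38 were 84.8% identical, with 12 mismatches and 28 gap columns. The shared run ends 6 bases before the start of Ugt2b5, 23 before that of Ugt2b37 and 9 before that of Ugt2b38.

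The remaining UGT genes use other sugars, and none was called in kidney. Ugt3a2 had 10441 and 6372 counts and a log2 ratio of −0.04 (−0.09 to 0.00), and Ugt3a1 had 1677 and 1065 counts and 0.02 (−0.10 to 0.13), or −0.18 by library size only. They lie next to each other on chromosome 15 (9276888 to 9370955). Ugt8a, which adds galactose to ceramide, had 1035 and 781 counts and 0.27 (0.13 to 0.40). Added together, the UGT genes had 22307 and 11979 counts, 909 and 778 CPM, a log2 ratio of −0.22 (−0.26 to −0.19).

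Of the SULT genes, 6 were tested in kidney, 1 was called and it was higher. That is a share of 16.7% from 1 gene, against 15.4% of all kidney genes called and 7.8% called higher. The median log2 ratio was 0.24, from −0.0043 to 1.07. Sult1d1 (ENSMUSG00000029273.10, chromosome 5, 87554645 to 87569027), which sulfates catecholamines and other phenols, held 88.7% (88.3 to 89.2) of the SULT reads under CLP and 89.8% (89.2 to 90.3) under CLP + MLT. Its 16314 and 12040 counts gave 0.23 (0.20 to 0.27). Sult1a1 (chromosome 7, 126672865 to 126676432), the main phenol sulfotransferase, had 1133 and 709 counts, and no difference was detectable at this depth, with −0.0043 (−0.14 to 0.13). Sult1c2 had 759 and 500 counts and 0.07 (−0.10 to 0.23), or −0.13 by library size only. The call was that of Sult2b1, the cholesterol sulfotransferase, at a low level: 40 and 53 counts, 2.09-fold higher, with 1.07 (0.46 to 1.71). Sult1b1 and Sult5a1 had under 80 counts in each library, with 0.37 (−0.21 to 0.95) and 0.24 (−0.27 to 0.75). Together the SULT genes had 18386 and 13413 counts, 749 and 871 CPM, a log2 ratio of 0.22 (0.18 to 0.25).

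The kidney libraries also differed in markers of the tubule. Of 7 tubular injury markers, 6 were lower in the CLP + MLT library, with a median log2 ratio of −2.28. Their summed level was 10173 CPM in CLP and 2147 in CLP + MLT, of which Spp1 alone made up 9142 and 1882. Among 8 markers of the S1 and S2 segments of the proximal tubule, 5 were lower, led by Slc5a12 (−3.31) and Slc5a2 (−2.23), and 1 was higher, Slc34a1 (0.63). Of 7 markers of segment S3, 2 were higher, 0 were lower and the median was 0.50. The summed levels were 2972 and 3216 CPM for S1 and S2, and 1618 and 2289 for S3. The part of these differences in the GST and UGT values was not tested. The hepatocyte list, with 2 of 8 higher and 2 of 8 lower, had a median of 0.03.

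With a spread between mice assumed instead of counting error alone, fewer kidney genes passed. At a coefficient of variation of 0.2 in edgeR's exact test, 5 of the 37 transferase genes tested were called, against 3.66% of all genes: Ugt2b5 was higher and Gsta1, Ugt1a10, Ugt1a7c and Ugt2b34 were lower. At 0.4, Gsta1, Ugt1a10 and Ugt2b34 were called, against 0.532% of all genes. Gsta1, Ugt1a10 and Ugt2b34 had 1, 2 and 7 counts in the CLP + MLT library. All 3 passed the minimum mean only through their CLP counts, so no conclusion is drawn from the comparison with all genes.

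The genes that supply these enzymes and carry their products away were read against the 15.4% of all kidney genes called, 7.8% higher and 7.58% lower. For glutathione, 4 of 21 genes tested were higher and 2 were lower, with a median of 0.21. Nat8f1, of a family that acetylates cysteine conjugates, was higher (2079 and 3936 counts, 1.59) and its relative Nat8f2 was lower (1182 and 325, −1.19). Acy1, which removes such acetyl groups, was higher (0.90) and Gsr, which reduces oxidised glutathione, was lower (−0.61). Gclc, the enzyme that limits glutathione synthesis, had 7348 and 5856 counts and 0.34, and was not called. Of 8 genes for UDP-glucuronic acid, 1 was higher, Miox (0.79), which breaks down inositol, and 0 were lower. Ugdh, which makes UDP-glucuronic acid, had 2828 and 1445 counts and −0.30 and was not called. Of 13 genes for PAPS and sulfate, 0 were higher and 3 were lower: the sulfate transporter gene Slc13a1 (11423 and 2839 counts, −1.34), the sulfite oxidase gene Suox (−0.90) and Arsb (−0.69), a lysosomal sulfatase. The PAPS synthase genes Papss1 (−0.17) and Papss2 (0.44) were not called.

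Among 18 transporter genes, 2 were higher, Slc22a8 (0.73) and Abcc3 (0.71), and 1 was lower, Slc22a6 (−0.63). Both Slc22 genes encode organic anion transporters of the proximal tubule. The membrane-bound glutathione transferases, a separate family, split: Mgst1 was lower (9845 and 2358 counts, −1.39) and Mgst3 was higher (2812 and 2814 counts, 0.67), of 5 tested.

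Of 19 regulators, 3 were higher, among them Esr1 (1.48), and 2 were lower, Maff (−1.24) and Nr1i2 (−0.83), which encodes the xenobiotic receptor PXR. Nfe2l2, which encodes NRF2, was not called (−0.21). Of 10 known targets of such regulators, 5 were lower and 0 were higher. Of all kidney genes, 7.58% were lower and 7.8% higher. Hmox1 (4739 and 472 counts, −2.65), Cyp2b10 (−1.74), Srxn1 (−1.08) and Txnrd1 (−0.79) were the farthest from 0.

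The upstream windows of the transferase genes were searched for 2 short motifs, on both strands: TGACNNNGC, the core of the element bound by NRF2 with small MAF proteins, and GCGTG, the core bound by the AHR with ARNT. RefSeq windows of 250 bases before to 50 after the start were matched for 18 of the 20 GST, 10 of the 11 UGT and all 7 SULT genes. TGACNNNGC stood in 3 of 26 GST windows (11.5%), 0 of 10 UGT windows and 0 of 9 SULT windows, against 12.4% of 32851 windows of all genes. GCGTG stood in 7 GST windows (26.9%), 1 UGT window (10%) and 4 SULT windows (44.4%), against 32.4% of all. A match is a description of letters, not of a bound site. The 3 GST genes with the first motif were Gsta3, Gstm5 and Gstm7. None of them was called in kidney, while Gstm5 was called lower in heart with TMM scaling (310 and 201 counts, −0.61). The motif is given in capitals within 15 bases on each side, on the strand of the gene. The 3 stretches lie at chr1:21240449-21240487, chr3:107895797-107895835 and chr3:107931720-107931758.
Gsta3: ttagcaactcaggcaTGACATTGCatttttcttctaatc
Gstm5: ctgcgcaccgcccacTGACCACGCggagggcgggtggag
Gstm7: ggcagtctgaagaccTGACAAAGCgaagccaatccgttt
In Gstm5 the motif overlaps a GCGTG on the other strand.

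In heart, the GST genes split in direction, and no difference in their sum was detectable at this depth. Of the 20 genes, 17 had enough counts in heart to be tested. Lower in the CLP + MLT library were 5 (Gsta1, Gsta4, Gstk1, Gstm5 and Gstp1), 2 were higher (Gstt2 and Gstt3) and 10 were not called. The called share was 41.2% of those tested, against 15.9% of the 15871 genes tested in heart, where 8.78% were lower and 7.15% higher. The median log2 ratio was 0.0046, from −1.49 to 1.07, beside 0.0023 for all genes. The summed GST counts were 6653 and 6667, with a log2 ratio of 0.01 (−0.04 to 0.06).

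Gsta4 (ENSMUSG00000032348.6, chromosome 9, 78182774 to 78209349) had 473 and 215 counts. It was 2.18-fold lower, with −1.13 (−1.37 to −0.89). Gstk1 (chromosome 6, 42245935 to 42250447), the mitochondrial enzyme, had 589 and 364 counts and −0.68 (−0.88 to −0.49). Gstp1 had 647 and 406 counts and −0.66 (−0.85 to −0.48), and Gstm5 had 310 and 201 counts and −0.61 (−0.88 to −0.35), a call that was lost by library size only and by the upper quartile. Gsta1 was the only transferase gene called in both tissues, and lower in both, with 32 and 11 counts in heart and −1.49 (−2.67 to −0.50). Its kidney value rests on 31 counts and 1 count, and 80.6% of its 100-base windows also occur in other genes. The higher calls were neighbours on chromosome 10 (75774115 to 75837424). Gstt2 had 481 and 1003 counts, with 1.07 (0.91 to 1.23), and Gstt3 had 68 and 112 counts and 0.73 (0.28 to 1.19). Gstt1, which lies between them, had 182 and 208 counts and 0.20 (−0.09 to 0.50). Gstm1, with the most GST reads in heart, had 1566 and 1950 counts and 0.33 (0.23 to 0.42) and was not called. Gstm2 had 666 and 517 counts and −0.36. The other 7 uncalled genes (Gsta2, Gsta3, Gstm4, Gstm7, Gsto1, Gstp2 and Gstz1) lay between −0.49 and 0.25. Gstm6 and Gsto2 had fewer than 10 counts in each heart library and were not tested. Gstp3 had 0 counts in both heart libraries, which allows up to 3 counts or 0.203 and 0.211 CPM.

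**Figure D3:**
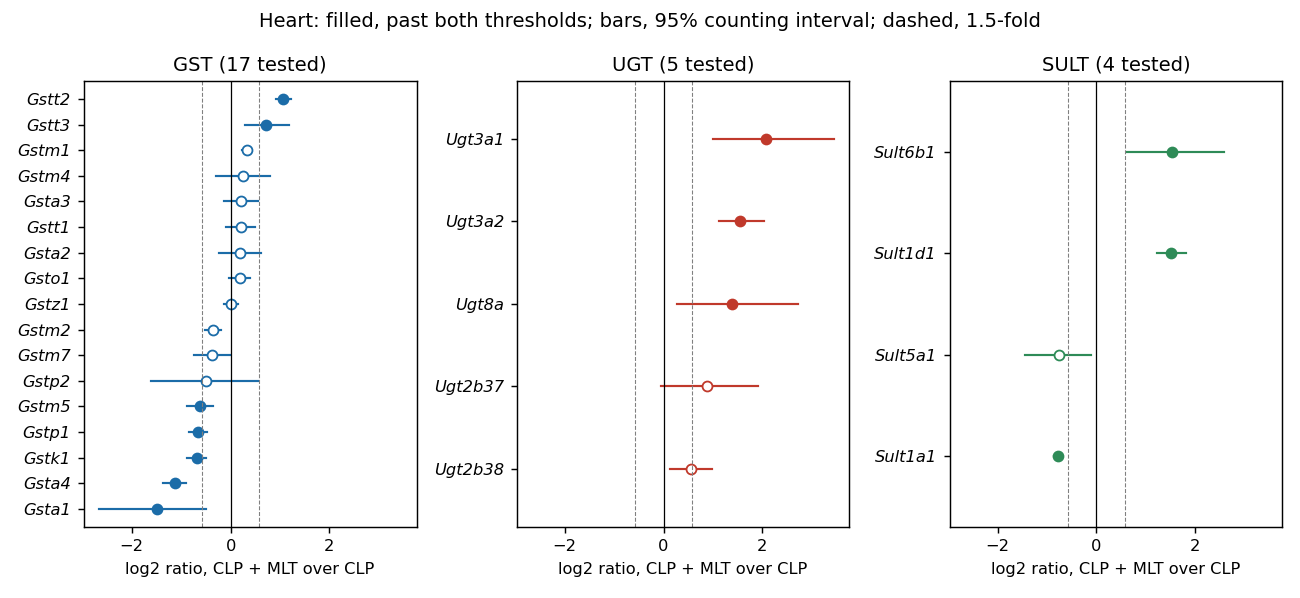
Heart log2 ratio, CLP + MLT against CLP, for the 17 GST, 5 UGT and 4 SULT genes tested, 1 library per group. Bars are 95% counting intervals, filled points passed both thresholds and dashed lines mark 1.5-fold. The 5 UGT genes all lie above 0, while the GST genes lie on both sides, from −1.49 for Gsta1 to 1.07 for Gstt2.

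The SULT genes of heart were led by Sult1a1, which had 3769 and 2168 counts. It was 1.73-fold lower, with −0.79 (−0.86 to −0.71). Its level in heart was 617% of that in kidney between the CLP libraries and 371% between the CLP + MLT libraries, and its share of heart SULT reads was 94.8% (94.1 to 95.5) and 82.6% (81.1 to 84.0). Of the 4 SULT genes tested in heart, Sult1a1 was the 1 called lower, and 2 were called higher, beside 8.78% and 7.15% of all heart genes. Sult1d1 had 132 and 373 counts, 2.84-fold higher, with 1.50 (1.22 to 1.81), and Sult6b1 had 13 and 38 counts, with 1.52 (0.62 to 2.59). Sult6b1 was the only transferase gene tested in heart and not in kidney, where it had 3 and 5 counts. Sult1b1, Sult1c2 and Sult2b1 had at most 11 counts in a heart library and were not tested. Sult5a1 had 55 and 32 counts and −0.76 (−1.45 to −0.12), and was not called. The summed SULT counts were 3974 and 2626, with −0.59 (−0.66 to −0.52). Slc35b2, a PAPS carrier of the Golgi membrane, was also lower in heart (243 and 156 counts, −0.63).

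The UGT genes were scarce in heart, with 183 and 382 counts in all against 22307 and 11979 in kidney. Only 5 were tested, and 3 of them were called, each higher in the CLP + MLT library, where 7.15% of all heart genes were higher. Ugt3a2 had 56 and 164 counts, 2.93-fold higher, with 1.55 (1.11 to 2.02). Ugt3a1 had 8 and 35 counts and 2.07 (1.01 to 3.46), and Ugt8a had 9 and 24 counts and 1.38 (0.27 to 2.71). Ugt2b38, with 83 and 121 counts, had 0.55 (0.14 to 0.97) and was called by library size only and by the upper quartile, and Ugt2b37, with 15 and 28 counts, had 0.89 (−0.04 to 1.92). These genes were filtered on their mean, so that a gene at this level passes more easily when 1 library is high. Ugt3a1 and Ugt8a passed only through their CLP + MLT counts, so the filter favoured these 2 higher calls. No conclusion is drawn from the share of UGT calls beside that of all genes. With a minimum mean of 50 counts, Ugt3a2 was the only UGT gene called in heart. Ugt1a10, Ugt2a3 and Ugt2b34, 3 of the 5 lower calls in kidney, had 0 counts in both heart libraries. Of the others not tested, Ugt1a6a had 8 and 0 counts in heart, Ugt1a7c had 4 and 6, and Ugt2b5 had 0 and 4.

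Many genes of the kidney tubule were also higher in the CLP + MLT heart library. Of 26 markers of the proximal tubule, thick limb, distal tubule and collecting duct, 24 were tested in heart, 14 were higher and 0 were lower, beside 7.15% and 8.78% of all heart genes. As a percent of the kidney level, their heart level had a median of 1.87% (0 to 36.2) in the CLP libraries and 3.59% (0.935 to 40.7) in the CLP + MLT libraries. Their summed counts in heart were 5870 and 8293, of which Atp11a alone had 2533 and 2656. Against the 14 higher markers, Slc5a12 (−1.49), Slc7a7 (−0.41) and Slc5a2 (−0.36) had intervals wholly below 0 but were not called. For Sult1d1 and the 5 UGT genes tested in heart, the same median was 1.56% (0.886 to 2.73) and 3.88% (3.12 to 5.61). Slc34a1 had 587 and 1454 counts in heart and Aqp2, the water channel of the collecting duct, had 26 and 143. The part of kidney RNA in the heart values of these 6 genes was not tested. By contrast, the 20 GST genes stood at medians of 29.2% and 32.5% of the kidney level, and Sult1a1 was above it.

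**Figure D4:**
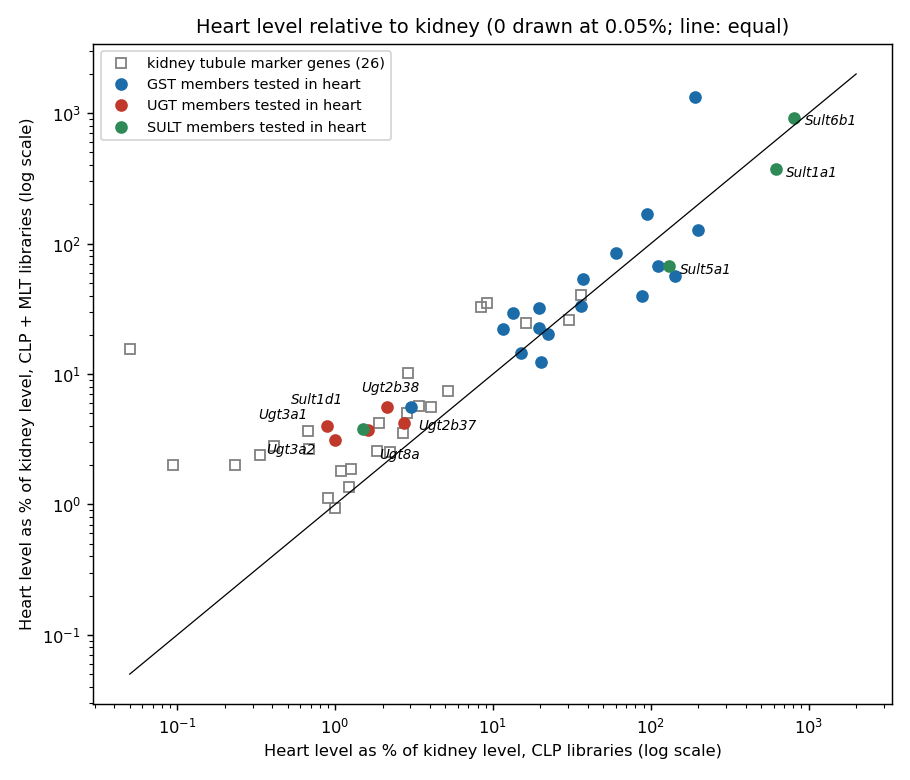
Level in heart as a percent of the level in kidney, CLP libraries on the x axis and CLP + MLT libraries on the y axis, both log. Points are the transferase genes tested in heart, open squares are 26 kidney tubule markers, and the line marks equal percents. A value of 0 is drawn at the left end of the line. Sult1d1 and the 5 UGT genes lie among the tubule markers, at 0.886% to 5.61%, while most GST genes and Sult1a1 lie above 10%.

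Cardiomyocyte markers were lower or uncalled in the CLP + MLT heart. Of 7 tested, 2 were lower, Myl2 (−1.33) and Tnni3 (−1.27), and 0 were higher. Their summed level was 34419 CPM in CLP and 23537 in CLP + MLT. The hepatocyte list had 2 higher and 3 lower of 8, among the latter Ahsg (76 and 37 counts, −1.02), and its summed level was 54.0 and 54.1 CPM. The part of these cell types in the GST and SULT values was not tested.

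The other genes around these enzymes were read in heart against the 15.9% of all genes called, 7.15% higher and 8.78% lower. For glutathione, 5 of 20 were higher and 1 was lower, led by Nat8f1 (26 and 128 counts, 2.29) and, on the lower side, Dpep1 (1095 and 466, −1.22), a dipeptidase that trims glutathione conjugates. Of the membrane-bound transferases, 2 of 5 were lower, Ptges (−1.48), a prostaglandin synthase, and Mgst3 (2086 and 851 counts, −1.28), and 0 were higher. For UDP-glucuronic acid, 1 of 8 was higher, Miox (0.84), and 1 was lower, Slc35d1 (−0.60). For PAPS and sulfate, 2 of 13 were higher, Slc26a2 (0.88) and Bpnt1 (0.77), and 1 was lower. Of the transporter genes, 4 of 16 were higher and 0 were lower, led by Slc22a7 (1.81) and Slc22a8 (1.22). Of the regulators, 4 of 18 were higher and 0 were lower, among them Ppara (1.34), Hnf4a (1.33) and Ahr (0.92). Of the 8 targets tested, 2 were higher, Cyp4a10 (1.27) and Cyp4a14 (0.59), and 1 was lower, Cyp1b1 (−0.70), while Hmox1 was not called (265 and 215 counts, −0.29).

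With an assumed coefficient of variation of 0.2, 4 of the 26 transferase genes tested in heart were called, against 4.17% of all genes: Sult1d1, Ugt3a1 and Ugt3a2 were higher and Gsta4 was lower. Of these, Ugt3a1 had 8 and 35 counts and passed the minimum mean only through the CLP + MLT library. At 0.4, 0 were called, against 0.397% of all genes. At a fold change of 2 instead of 1.5, without that assumption, 7 of the 37 transferase genes tested in kidney were called, against 7% of all genes. In heart, 8 of the 26 tested were called, against 7.93% of all genes.

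Of the 38 transferase genes, 25 were tested in both tissues and 13 in only 1. The log2 ratios had the same sign in 12 and opposite signs in 13. Called in both tissues was 1 gene, Gsta1, which had few counts and shares most of its sequence with other genes. For 6 genes the counting intervals lay wholly on opposite sides of 0. Gsta4, Gstk1, Gstm2 and Gstm5 were above 0 in kidney (Gstm5 at −0.061 by library size only) and below 0 in heart, and Gstt3 and Ugt2b38 were below 0 in kidney and above it in heart. None of these 6 was called in both tissues. The same counts were not taken over all genes tested in both tissues. They are therefore given without a background and describe no trait particular to the transferase genes.

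**Figure D5:**
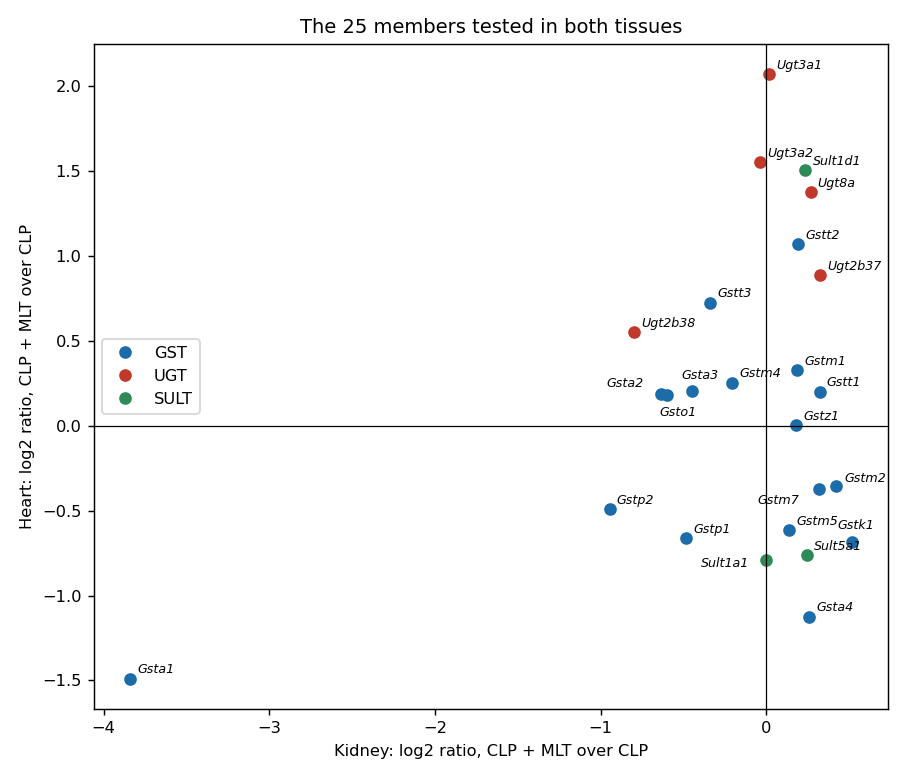
Log2 ratio of the CLP + MLT to the CLP library in kidney (x axis) and heart (y axis) for the 25 transferase genes tested in both tissues, each point 1 gene from 1 library per group and tissue. Gsta1 is low in both, at −3.84 and −1.49, but had only 1 count in the CLP + MLT kidney library. The UGT genes lie above 0 in heart whatever their kidney value.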

How the data were processed

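RNA of 4 libraries (kidney and heart, CLP and CLP + MLT) was analysed as the authors deposited it, in raw counts of reads per gene, without normalization. Trimming was by trim-galore and alignment to mm10 by HISAT2, and the submitters' processing notes name HISAT2 2.1.0 and HTSeq. Neither the annotation nor the strand setting of the counting was found in the sources used here, so reads of overlapping genes on opposite strands cannot be told apart. The last 5 lines of a file are totals and no genes. They held 65.5% to 72.8% of all reads listed and were left out.

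Identifiers were matched without version to GENCODE M21 (GRCm38, the same build as mm10), 55141 of 55401. Factors came from edgeR 4.0.16 (TMM) in R 4.3.3, within each tissue for ratios and over the 4 libraries for levels. A mean of at least 10 counts in the tissue was required, which left 16932 genes in kidney and 15871 in heart, and a prior count of 0.5 was added. The exact binomial test, Clopper-Pearson intervals and shares were computed in Python 3.11.15 with scipy 1.17.1, over all genes. The thresholds are those the study states for edgeR. A dispersion cannot be estimated from single libraries, so edgeR's exact test was run only at assumed variations. Intervals and floors hold only counting error, and reads that are PCR copies are counted as separate molecules. The procedure was tested on simulated counts. Alternatives were scaling by library size, DESeq2 1.42.0 size factors or the upper quartile, TMM without mitochondrial and haemoglobin genes, no filter or a mean of 50, a prior count of 5, assumed variations of 0.2 and 0.4, and a fold change of 2.

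The transferase genes, the lists of related genes and of markers, and the tests were chosen with earlier results of these data known. Values are given for genes called in a tissue, for the 3 highest per length in each family and tissue, and for the list genes farthest from 0 among those called. Other transferase and list genes were named after their values were seen. Protein sequences were not used here, so the likeness of genes was taken from transcripts. Values of some list genes are not reported here.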

Additional observations from a re-analysis of the deposited data

Results flagged for a closer look

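For 6 genes the counting intervals of the log2 ratio between the CLP + MLT and CLP libraries lay wholly on opposite sides of 0 in the 2 tissues. Each tissue has 1 library per group, so the difference between the tissues was not tested. How many of all genes lie this way was not counted. The log2 ratio in heart minus that in kidney was −1.38 for Gsta4, −1.20 for Gstk1, −0.77 for Gstm2 and −0.75 for Gstm5, and it was 1.07 for Gstt3 and 1.35 for Ugt2b38.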

How the results depend on the processing

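No paired analysis was possible because each group has 1 library. DESeq2 size factors and TMM without mitochondrial and haemoglobin genes left every call of a transferase gene in place. Scaled by library size only, all kidney genes shifted to a median of −0.19 and 23.5% of the kidney calls were higher, against 50.7% with TMM. The lower GST calls in kidney then numbered 7, the UGT median was −0.89, and the summed log2 ratios were −0.14 for GST, −0.42 for UGT and 0.02 for SULT. Values that crossed 0 were Gstm1 (−0.0089), Gstm5 (−0.061), Gstt2 (−0.0044), Gstz1 (−0.015), Sult1c2 (−0.13) and Ugt3a1 (−0.18). With the upper quartile, 2 GST genes were lower in kidney and Sult1a1 stood at 0.018. In heart, library size only gave 52.0% higher calls against 44.9%.

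With a mean of at least 50 counts, fewer genes were tested: in kidney 2 GST and 3 UGT genes were lower, 0 SULT genes were higher and the UGT median was −0.013. In heart 1 UGT and 1 SULT gene were then higher. With no filter, 1 UGT gene was lower in heart and the SULT median there was 1.50. At a fold change of at least 2, 1 GST gene was lower in kidney, and in heart 2 were lower and 1 was higher, with 0 SULT genes lower. Over all genes that threshold gave 1185 calls in kidney and 1259 in heart.

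At an assumed variation of 0.2, 619 genes were called in kidney and 662 in heart. In kidney 1 GST and 3 UGT genes were lower and 0 SULT genes higher. In heart 1 GST gene was lower and 0 higher, and 1 SULT gene was higher and 0 lower. At 0.4, 90 and 63 genes were called. In kidney 1 GST and 2 UGT genes were lower and 0 UGT and 0 SULT genes higher, and in heart 0 transferase genes of any family were called in either direction. Genes with few counts, such as Gsta1 and Ugt1a10 in kidney and Ugt3a1 and Ugt8a in heart, have intervals over 2 log2 units wide.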

Other observations

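The remaining cell type lists were described for the same libraries. In kidney, 0 of 5 endothelial markers were called in either direction, with a median log2 ratio of −0.43 and a range of −0.56 to −0.17. Of 5 fibroblast and mural markers, 1 was lower (median −0.28), and of 4 leukocyte markers, 1 was higher (median 0.39). Of 3 fat markers, 1 was lower (median −1.29). Of 5 markers of the thick limb and distal tubule, 2 were higher (median 0.04), and of 6 collecting duct markers, 1 was higher (median 0.21). Of 7 cardiomyocyte markers tested in kidney, 3 were higher, at a summed level of 10.6 and 15.5 CPM.

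In heart, 1 of 5 endothelial markers was higher (median 0.36), 1 of 5 fibroblast and mural markers was lower (median −0.32) and 1 of 4 leukocyte markers was higher (median 0.07). The 1 fat marker tested was not called (0.14). Markers of tubular injury, several of which other tissues also express, were lower in 3 of 4 tested, with a median of −0.77. None of these differences has a replicate, and their part in the transferase values was not tested.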
